A study of Mus musculus with 10 samples.

Results

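The 10 genes followed here encode the nuclear lamina and the proteins that fix it to the nuclear membranes. They are the lamin genes Lmna, Lmnb1 and Lmnb2, the lamin B receptor gene Lbr, the LEM-domain genes Emd and Tmpo, the SUN genes Sun1 and Sun2, and the nesprin genes Syne1 and Syne2. They were chosen by gene symbol and are 10 of the 45706 genes in the deposited tables. All 10 passed the filter on low counts.

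The libraries came from embryonic fibroblasts of the mouse (MEF), from the same kind of cells during their conversion to induced pluripotent cells, and from embryonic stem cells, with 2 libraries at each of 5 stages and 10 libraries in all. The labels give the strain C57BL/6 x 129 for every group. The MEF, day 3, day 6 and day 9 cells carried OKSM, a doxycycline-inducible cassette for Oct4, Klf4, Sox2 and Myc, at Col1a1, and the transactivator M2rtTA at Rosa26. MEFs were grown in MEF medium without doxycycline. Day 3, 6 and 9 cells were grown in ESC medium with doxycycline at 1 µg/ml and ascorbic acid at 50 µg/ml, so the medium and both agents changed together between MEF and day 3. MEF and day 3 cells were unsorted. At days 6 and 9 the cells positive for the surface marker SSEA1 were taken by sorting, which the sample labels write as SSEA+. The stem cells (ESC) were the single established line V6.5, with no cassette named in the label, unsorted and grown with serum and LIF on irradiated feeder cells. All libraries carry the same batch label, and the series text calls the replicates biological.

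The lamina is a mesh of lamin filaments beneath the inner nuclear membrane that anchors chromatin and sets the stiffness of the nucleus. Lmna makes the A-type lamins, which are abundant in stiff and differentiated tissue such as fibroblasts and scarce in early embryonic cells, whereas the B-type lamins of Lmnb1 and Lmnb2 are present in nearly all cells. Lbr, emerin (Emd) and LAP2 (Tmpo) hold chromatin and lamins to the inner membrane. SUN proteins span the inner membrane and bind the KASH tails of nesprins in the outer membrane, which links the nucleus to the cytoskeleton.

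The ends of the coding sequences show how these proteins reach the membrane, and they separate the splice forms described here. Each is given 5′ to 3′ as the last 48 bases with its stop codon, from the GENCODE M21 transcript on GRCm38, and capitals mark the last 4 codons before the stop.
Lmna-001, lamin A precursor: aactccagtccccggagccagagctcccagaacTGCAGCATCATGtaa
Lmna-002, lamin C: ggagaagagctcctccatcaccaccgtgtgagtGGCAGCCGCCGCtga
Lmnb2-201, lamin B2: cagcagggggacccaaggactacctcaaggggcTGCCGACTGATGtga
Syne1-202, nesprin-1: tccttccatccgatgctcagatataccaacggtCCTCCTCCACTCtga
Syne2-001, nesprin-2 giant: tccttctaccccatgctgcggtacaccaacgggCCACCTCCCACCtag
Lmna-001 and Lmnb2-201 end on a cysteine codon followed by 3 more, the CaaX box that is farnesylated. Lmna-002 shares its first 1705 coding bases with Lmna-001 and ends without that codon; lamin C is known not to be farnesylated. Both nesprin ends carry 3 proline codons, the PPPX end of the KASH tail that a SUN domain binds.

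Library depth was 29585876 to 38275024 estimated reads, and 20165 genes were tested. Sex-linked genes set the libraries apart. Xist, the RNA that coats the inactive X chromosome, had a mean CPM (its estimated count per library, scaled by TMM) of 0.766 in MEF, 1010 at day 3, 1304 at day 6 and 1075 at day 9, with 10.2 in ESC. The Y-linked gene Ddx3y was at 88.5 CPM in MEF, 0.0713 at day 3, 0.164 at day 6 and 0.0987 at day 9, with 26.5 in ESC. Comparisons of the induced cells with MEF or ESC therefore also compare cells that differ in sex-linked expression. In them stage and the source of the cells cannot be told apart. Comparisons among days 3, 6 and 9 are between libraries with Xist at 929.6 CPM or more. The part of the sex-linked difference in any result was not tested. Of 10 fibroblast markers, 10 were lower at day 9 than in MEF by the call rule below, against 19.8% of all tested genes. All 8 of 8 pluripotency markers were higher in ESC than in MEF, against 25.5% of all genes.

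A gene was called where the quasi-likelihood test of edgeR gave an adjusted p under 0.05 (Benjamini-Hochberg, over all tested genes) and the absolute log2 fold change (LFC) was at least 1. From MEF to day 3, 4 of the 10 genes were called, against 29.1% of all tested genes. Lmnb1, Tmpo and Syne2 were higher (14.6% of all genes) and Lmna was lower (14.5%). From day 3 to day 6, 3 were called, Lmna, Sun2 and Syne1, all lower, against 19.5% of all genes called and 10.2% lower. That step also goes from unsorted to sorted cells, so time and sorting cannot be told apart. From day 6 to day 9 edgeR called 0 of the 10, against 7.87% of all genes, and DESeq2 and limma also called 0. In that step 7 of the 10 had an adjusted p under 0.05 by edgeR, against 34.6% of all genes, with changes under the fold minimum.

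Against MEF, day 9 cells differed in 8 of the 10 genes, where 43.9% of all genes were called. Lmnb1, Lmnb2, Lbr, Tmpo and Syne2 were higher (24.1% of all genes) and Lmna, Sun2 and Syne1 were lower (19.8%). ESC differed from day 9 in 1 gene, Syne2, which was lower, against 32.9% of all genes called and 14.3% lower. ESC differed from MEF in 6, against 46.1% of all genes. Lmnb1, Lmnb2 and Lbr were higher (25.5% of all genes) and Lmna, Sun2 and Syne1 were lower (20.6%). By adjusted p alone, the 6 comparisons in this order had 9, 8, 7, 9, 8 and 10 of the 10 genes, against 64.9, 56.5, 34.6, 74.9, 69.6 and 76.6% of all genes. Scaling by library size in place of TMM moved the median LFC of all genes at day 3 against MEF from 0.08 to 0.285 and called 7 of the 10 there (31.2% of all genes), adding Lmnb2, Lbr and Sun1. Comparisons that share a group are not independent. In these bulk libraries fewer cells of a type and less RNA per cell cannot be told apart.

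**Figure D1:**
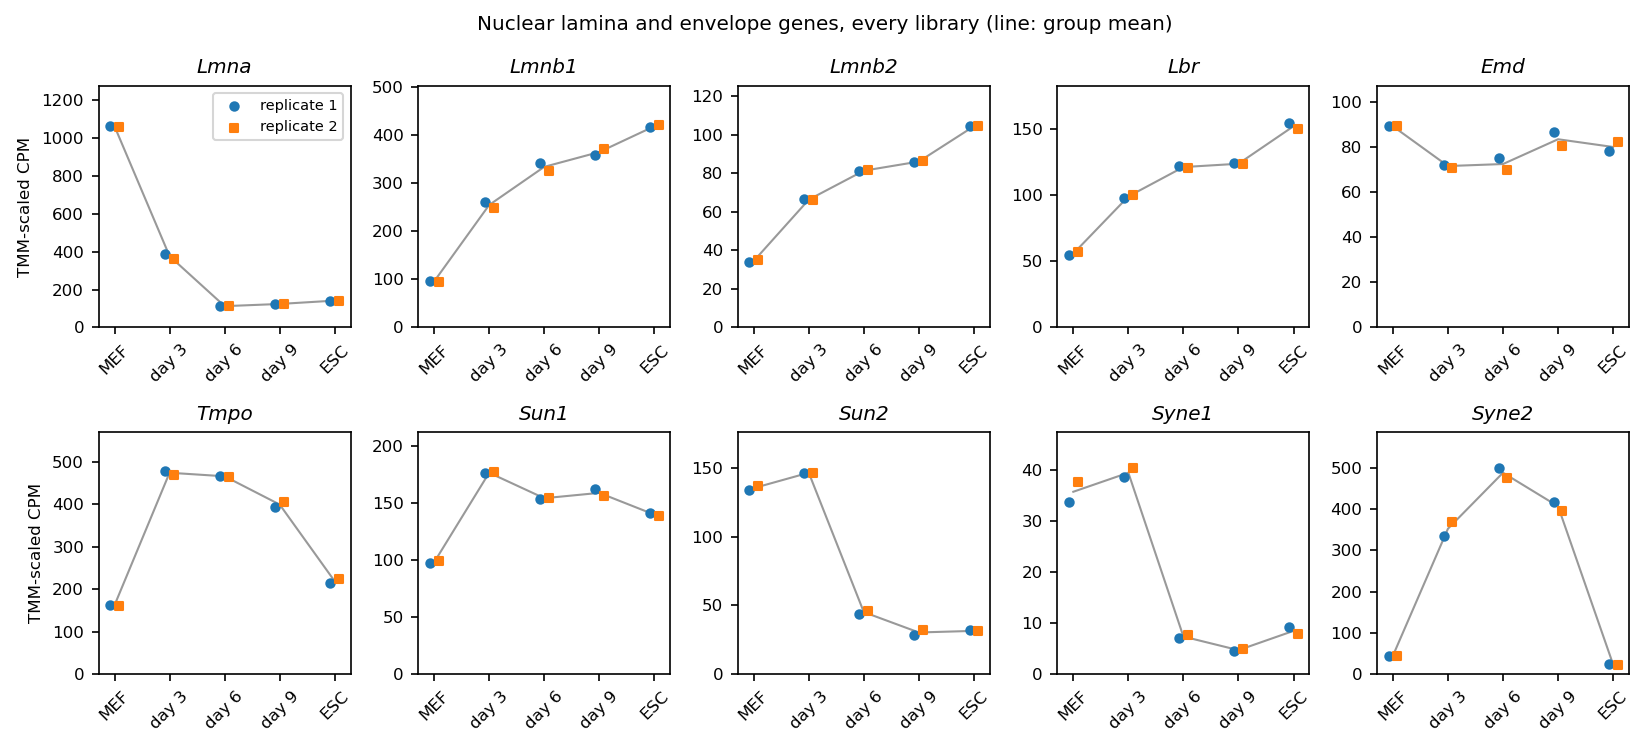
Expression of the 10 genes in every library. Each panel shows 1 gene, with CPM on the vertical axis and the 5 stages on the horizontal axis; points are the 2 libraries of a stage and the grey line joins stage means as a guide. ESC are a separate cell line and not a later time. Lmna falls from 1065 and 1059 CPM in MEF to 110.8 and 113.8 at day 6, whereas Syne2 is high only in the 6 libraries of days 3, 6 and 9.

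Lmna (ENSMUSG00000028063.13, chromosome 3, 88480147 to 88509956, minus strand, GRCm38) encodes lamins A and C and fell in 2 steps. Its libraries were at 1065 and 1059 CPM in MEF, 388.8 and 363.7 at day 3, 110.8 and 113.8 at day 6, 123.1 and 124.8 at day 9, and 141.7 and 141.6 in ESC. No stage overlapped another, and day 6 was the lowest. Lmna was 2.82-fold lower at day 3 than in MEF (LFC -1.50 ± 0.0344, SE; n = 2 libraries per group; adjusted p = 4.9e-14) and a further 3.35-fold lower at day 6 (LFC -1.75 ± 0.0365; adjusted p = 4.6e-14). From day 6 to day 9 its LFC was 0.14 (adjusted p = 0.0083), which is under the fold minimum. ESC were 7.5-fold lower than MEF (LFC -2.91 ± 0.0368; adjusted p = 9e-17). ESC, grown on feeder cells, held Lmna at 13.3% of its MEF level and the 10 fibroblast markers at a median of 8.17% (range 1.11 to 14%). The part of feeder RNA in the ESC value was not tested.

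The B-type lamins moved the other way. Lmnb1 (ENSMUSG00000024590.8, chromosome 18, 56707813 to 56753424, plus strand), lamin B1, was at 97.45 and 93.62 CPM in MEF, 260.5 and 248.2 at day 3, 341.4 and 325.8 at day 6, 359.1 and 369.8 at day 9, and 415.5 and 420.4 in ESC. On the CPM scale the stages stood in the order MEF, day 3, day 6, day 9 and ESC with no overlap, and the later steps were under the fold minimum. In TPM days 6 and 9 overlapped, with means of 82.0 and 78.0, and limma gave day 9 against day 6 an LFC of -0.07. The coding transcript Lmnb1-001 was at 56.6 and 54.0 TPM at day 6 and 57.5 and 58.7 at day 9. A retained-intron transcript of 659 bases was at 28.9 and 24.4 TPM at day 6 and 19.7 and 20.2 at day 9. Lmnb1 rose 2.66-fold from MEF to day 3 (LFC 1.41 ± 0.039; adjusted p = 3.6e-13) and was 4.38-fold higher in ESC than in MEF (adjusted p = 2.8e-15).

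Lmnb2 (ENSMUSG00000062075.11, chromosome 10, 80901203 to 80918245, minus strand), lamin B2, was at 34.17 and 34.75 CPM in MEF, 66.47 and 66.15 at day 3, 80.99 and 81.66 at day 6, 86.02 and 86.12 at day 9, and 104.4 in both ESC libraries. The order of stages was that of Lmnb1. The libraries of days 6 and 9 did not overlap, but the edgeR test did not tell them apart (adjusted p = 0.088). The day 3 LFC of 0.94 (adjusted p = 3.1e-11) missed the fold minimum, and Lmnb2 was higher than in MEF by day 9 (LFC 1.32 ± 0.0384, adjusted p = 2.9e-13) and in ESC (LFC 1.60 ± 0.0379, adjusted p = 3.7e-14).

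From MEF to day 3 and from day 3 to day 6 the A-type and B-type genes had LFCs of opposite sign, while in ESC against day 9 all 3 had small positive ones (0.19 for Lmna, 0.20 for Lmnb1 and 0.28 for Lmnb2). The share of Lmna in lamin RNA was lower than in MEF in all other groups. On the deposited TPM scale, which is per transcript length, Lmna gave 90 and 90.5% of the summed TPM of the 3 lamin genes in MEF. The share was 58.4% ± 1.48 (SD, n = 2) at day 3, 22.9% ± 0.664 at day 6, 24.9% ± 0.197 at day 9 and then 24.3% ± 1.01 in ESC. The ESC libraries, at 23.6 and 25%, overlapped those of day 9, at 24.7 and 25%. ESC were grown on feeder cells, and the part of feeder RNA in the ESC share was not tested. From estimated counts, without the length scale, the shares were 89.1, 54, 21.3, 21.6 and 21.3% in the same order. In TPM, Lmna was 10.9 and 11.8 times Lmnb1 in the 2 MEF libraries and 0.331 and 0.353 times Lmnb1 at day 6.

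**Figure D2:**
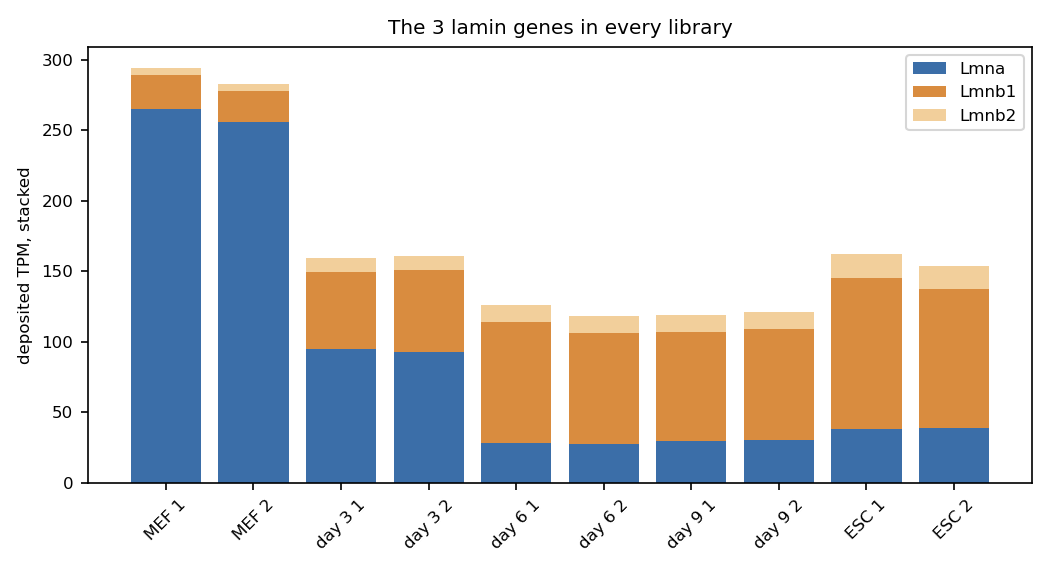
Lamin RNA by stage. Each bar is 1 library, and its segments are the deposited TPM of Lmna, Lmnb1 and Lmnb2, stacked from 0. The mean A-type share passes from 90.2% in MEF to 22.9% at day 6 and is 24.9% at day 9. It is 24.3% in ESC, which were grown on feeder cells.

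Within Lmna, the estimated share of lamin A was lower from day 6 on. Lamin A precursor (Lmna-001, 665 codons) held 46.0% ± 2.43 of the summed TPM of lamin A and lamin C (Lmna-002, 574 codons) in MEF and 47.7% ± 4.35 at day 3. It held 35.9% ± 2.03 at day 6, 35.6% ± 1.0 at day 9 and 34.9% ± 1.78 for ESC. The MEF and day 3 libraries, at 44.3 to 50.8%, all lay above the 6 later libraries, at 33.6 to 37.3%. No test was made of these shares: reads are 50 nt long and the 2 forms share most of their sequence, so the split is the quantifier's estimate. Another form with another first exon, Lmna-003, held 8.7 to 12.4% of Lmna reads by stage.

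The lamin B receptor, Lbr (ENSMUSG00000004880.9, chromosome 1, 181815335 to 181843046, minus strand), is an inner membrane protein that binds B-type lamins and heterochromatin and has a sterol reductase domain. Its libraries were at 54.56 and 56.89 CPM in MEF, 97.97 and 99.68 at day 3, 121.6 and 120.4 at day 6, 123.9 and 123.2 at day 9, and 153.9 and 149.7 in ESC. On the CPM scale the stages stood in the same order as for the B-type lamins, and days 6 and 9 were not told apart by the test (adjusted p = 0.57). Lbr was 2.21-fold higher at day 9 than in MEF (LFC 1.15 ± 0.037; adjusted p = 9.5e-13) and 2.72-fold higher in ESC (LFC 1.44 ± 0.0367; adjusted p = 7.6e-14). The day 3 LFC was 0.83, under the fold minimum. Settings that use transcript length gave other values for Lbr. Day 9 against day 6 had LFC -0.253 with a length offset and -0.334 and -0.342 with limma on TPM. Day 6 against day 3, at LFC 0.29 in the edgeR fit, was 1.003 with the length offset and 1.016 with limma on log2(TPM + 0.1), past the fold minimum. The main transcript, Lbr-001, was at 11.7 and 12.9 TPM at day 3 and 13.9 and 14.6 at day 6. A transcript of 237 bases was at 0 and 5.28 TPM at day 3. At day 6 it was at 13.6 and 13.4 TPM, on 16.5 and 15.9 reads. The part of short transcripts in these length-based values was not tested.

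Emd (ENSMUSG00000001964.12, chromosome X, 74254687 to 74261548, plus strand) encodes emerin, a LEM-domain protein that binds lamin A and the chromatin protein BAF. It was the steadiest of the 10 by its range of group means. Its libraries were at 89.14 and 89.29 CPM in MEF, 72.2 and 70.91 at day 3, 74.96 and 69.93 at day 6, 86.47 and 80.42 at day 9, and 78.01 and 82.01 in ESC. Days 3 and 6 overlapped, as did day 9 and ESC. The LFC of day 3 against MEF was -0.32 ± 0.0472 (adjusted p = 3.4e-05). Against MEF the LFC was -0.10 at day 9 (adjusted p = 0.072) and -0.16 in ESC (adjusted p = 0.0074), and scaling by library size in place of TMM turned both signs, to 0.192 and 0.183. Emd is X-linked, and the median LFC of the 746 tested X-linked genes at day 3 was 0.03, beside 0.08 for all genes.

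Tmpo (ENSMUSG00000019961.14, chromosome 10, 91147571 to 91181315, minus strand) encodes LAP2, whose alpha form is nucleoplasmic and binds A-type lamins and whose beta form sits in the membrane and binds lamin B1. Its libraries were at 162.9 and 161 CPM in MEF, 479.5 and 469.5 at day 3, 466.9 and 465.3 at day 6, 392.6 and 406.3 at day 9, and 213.6 and 223.4 in ESC. Unlike the B-type lamins, Tmpo was highest at days 3 and 6, which were not told apart by the test (adjusted p = 0.53), and ESC lay nearer to MEF. It rose 2.93-fold from MEF to day 3 (LFC 1.55 ± 0.0338; adjusted p = 2.8e-14). The ESC value against day 9 was LFC -0.87 (adjusted p = 1.2e-11), under the fold minimum. LAP2 alpha (Tmpo-201) held 24.0% ± 0.98 of alpha and beta TPM in MEF, 29.2% ± 0.03 at day 3, 25.5% ± 0.39 at day 6, 22.7% ± 1.04 at day 9, with 24.6% ± 1.1 in ESC, so the beta form led at every stage.

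Sun1 (ENSMUSG00000036817.12, chromosome 5, 139200637 to 139249840, plus strand) and Sun2 (ENSMUSG00000042524.11, chromosome 15, 79724070 to 79742536, minus strand) encode the 2 SUN proteins of most body cells. Sun1 was at 97.22 and 98.99 CPM in MEF, 176.6 and 177.3 at day 3, 154 and 155 at day 6, 162.3 and 156.2 at day 9, and 141.4 and 138.8 in ESC. Its changes stayed under the fold minimum in all 6 comparisons with TMM scaling. The LFC was 0.85 from MEF to day 3 (adjusted p = 1.8e-11), or 1.06 and called when scaled by library size, and 0.51 in ESC against MEF. Sun2 was at 134 and 136.9 CPM in MEF, 146.5 and 146.6 at day 3, 44.01 and 46.06 at day 6, 28.58 and 31.85 at day 9, and 31.73 and 31 in ESC. Day 9 and ESC overlapped (adjusted p = 0.44). Sun2 fell by 1.70 on the log2 scale between day 3 and day 6 (± 0.046, SE; adjusted p = 6.4e-13) and stood 4.32-fold lower in ESC than in MEF (adjusted p = 2.5e-14). Whether Sun1 and Sun2 differed in their changes was not tested.

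Sun1 is spliced to several forms, and the estimated share of Sun1-002 was lowest in MEF. It held 10.3% ± 5.51 of the TPM of Sun1-001 and Sun1-002 in MEF, with libraries at 6.4 and 14.2%, and 32.5% ± 3.65 at day 3, with libraries at 35.1 and 29.9%. It was 31.3% ± 4.66 at day 6 and 28.2% ± 1.4 at day 9, with 22.1% ± 0.13 in ESC, so both MEF libraries were lower than any other. Sun2 levels are given in CPM because 86.8 to 91.6% of its TPM came from Sun2-010, a transcript of 234 bases with 3.0 to 4.88% of its reads.

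The largest fold change among the 10 genes in these 6 comparisons was that of Syne2 between day 9 and ESC. Syne2 (ENSMUSG00000063450.12, chromosome 12, 75818134 to 76110926, plus strand) encodes nesprin-2, a KASH protein that ties the outer membrane to actin and microtubules. Its libraries were at 44.7 and 43.63 CPM in MEF, 335.6 and 369.5 at day 3, 500.6 and 476.3 at day 6, 417.4 and 396.5 at day 9, and 24.19 and 21.95 in ESC. All 6 induced libraries were at 335.6 CPM or more, and all MEF and ESC libraries were at 44.7 CPM or less. Syne2 rose 7.99-fold from MEF to day 3 (LFC 3.00 ± 0.0561; adjusted p = 5.4e-15) and was 17.7-fold lower in ESC than at day 9 (LFC -4.14 ± 0.0599; adjusted p = 4.4e-16). The ESC value against MEF was LFC -0.94 ± 0.0672 (adjusted p = 9.2e-09), just under the fold minimum, and passed it without ESC replicate 1 at -1.01. The giant form Syne2-001 held 43.6% ± 4.72 (SD, n = 2) of Syne2 reads in MEF and 23.7% ± 2.93 at day 3. It held 37.1% ± 2.27 at day 6 and 38.7% ± 2.9 at day 9, while the ESC libraries were apart at 37.87 and 24.94%. The shorter Syne2-006 held 22.7% in MEF, 40.8% at day 3, 36.4% at day 6 and 29.98% at day 9, with 30.3% in ESC.

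Syne1 (ENSMUSG00000096054.2, chromosome 10, 5020917 to 5551482, minus strand) encodes nesprin-1. Its libraries were at 33.73 and 37.71 CPM in MEF, 38.52 and 40.38 at day 3, 7.085 and 7.562 at day 6, 4.468 and 4.849 at day 9, and 9.133 and 7.744 in ESC. MEF and day 3 were not told apart by the test (adjusted p = 0.1), and the 3 later groups were all under 10 CPM. Syne1 fell by 2.43 on the log2 scale from day 3 to day 6 (± 0.086, SE; adjusted p = 1.1e-11) and stood 7.65-fold lower at day 9 than in MEF. Only 2 Syne1 transcripts were quantified, the longest of 6982 bases, whereas GENCODE M21 lists 9 with the longest at 27908 bases. These values therefore give no separate estimate of the giant form. Whether reads from it were counted in the 2 quantified transcripts was not tested.

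**Figure D3:**
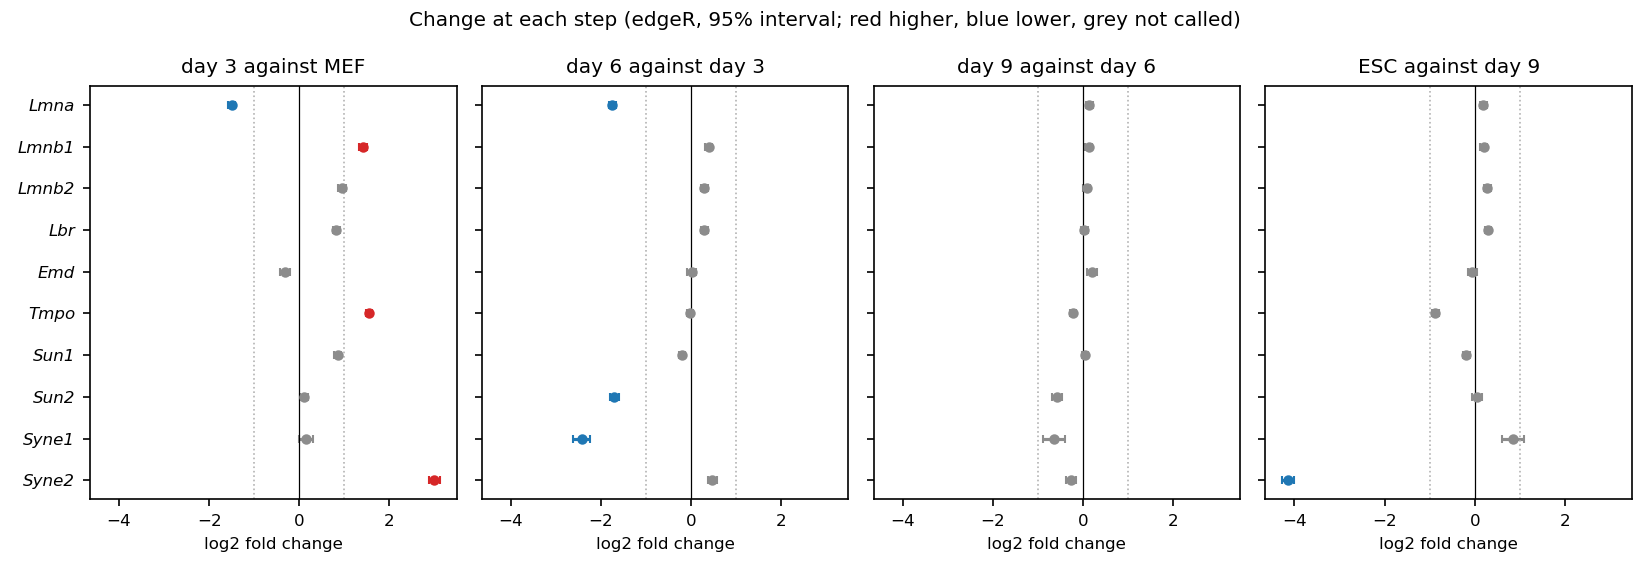
Log2 fold change of the 10 genes at day 3 against MEF, day 6 against day 3, day 9 against day 6 and ESC against day 9, fitted by edgeR. Points are estimates with 95% intervals, red called higher, blue called lower and grey not called, and dotted lines mark the fold minimum; Lmna is lower in the first and second panel (-1.50 and -1.75), and Syne2 changes sign between the first panel (3.00) and the last (-4.14).

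Levels between genes are comparable only per length. In CPM per kilobase of the main transcript, Lmna led in MEF at 336.5 ± 1.29 (SD, n = 2), ahead of Emd at 55.9, Tmpo at 45.8, Sun2 at 36.0 and Lmnb1 at 33.6. At day 6 Tmpo led at 131.9 ± 0.318, with Lmnb1 at 117.3 ± 3.87, Syne2 at 66.6 ± 2.34, Emd at 45.4 ± 2.23, Sun1 at 37.4 and Lmna at 35.6. In ESC Lmnb1 led at 147.0 ± 1.24, followed by Tmpo at 61.8, Emd at 50.2, Lmna at 44.9 and Lbr at 43.3, and both nesprins were lowest, at 3.15 for Syne2 and 1.75 for Syne1. A single main transcript stands for each gene in this scale, so a gene with a changing mix of forms, such as Syne2, is only approximately placed. For Syne2 that transcript is Syne2-006 of 7335 bases, with 36.4% of its reads at day 6. Syne2-001, of 21704 bases, held 37.1% there, and its length would give Syne2 a much lower value.

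**Figure D4:**
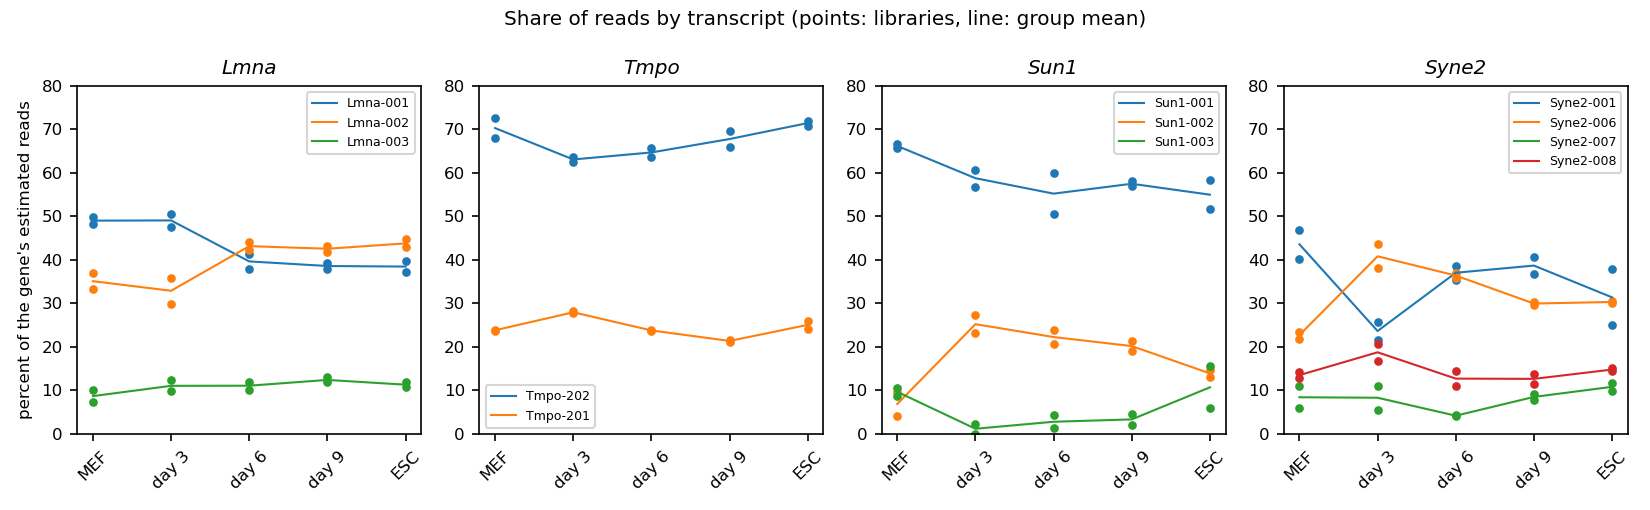
Share of a gene's estimated reads in its main transcripts by stage, for Lmna, Tmpo, Sun1 and Syne2. Points are the 2 libraries and lines join their means; the Lmna-001 share goes from 49.0% in MEF to 38.5% in ESC and the Sun1-002 share from 6.88% in MEF to 25.2% at day 3.

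4 of the genes are shown by their promoters, because they follow 4 different courses: Lmna falling, Lbr rising, Tmpo high at days 3 and 6, and Syne2 high only in the induced cells. Each is the 250 bases upstream of a start site in RefSeq on GRCm38.p6, 5′ to 3′ on the gene's strand. Capitals mark motif letters found on either strand: an octamer ATGCAAAT, the KLF letters GGGTGTGG and GGGCGTGG, an E-box CACGTG, an AP-1 box TGANTCA, the E2F letters TTTCCCGC and TTTGGCGC, a CHR element TTTGAA and a CCAAT box; GC boxes (GGGCGG) were counted but not marked.
Lmna, chr3:88503353-88503602, minus strand: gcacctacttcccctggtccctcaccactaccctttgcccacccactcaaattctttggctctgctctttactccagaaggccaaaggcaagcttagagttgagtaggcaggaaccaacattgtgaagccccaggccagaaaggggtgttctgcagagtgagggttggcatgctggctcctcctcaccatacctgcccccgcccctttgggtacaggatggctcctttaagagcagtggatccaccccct
Lbr, chr1:181842402-181842651, minus strand: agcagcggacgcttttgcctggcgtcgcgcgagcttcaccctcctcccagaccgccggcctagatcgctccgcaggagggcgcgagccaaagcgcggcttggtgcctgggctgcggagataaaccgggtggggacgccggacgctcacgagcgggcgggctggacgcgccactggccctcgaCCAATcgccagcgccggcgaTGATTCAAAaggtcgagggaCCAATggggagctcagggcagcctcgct
Tmpo, chr10:91171620-91171869, minus strand: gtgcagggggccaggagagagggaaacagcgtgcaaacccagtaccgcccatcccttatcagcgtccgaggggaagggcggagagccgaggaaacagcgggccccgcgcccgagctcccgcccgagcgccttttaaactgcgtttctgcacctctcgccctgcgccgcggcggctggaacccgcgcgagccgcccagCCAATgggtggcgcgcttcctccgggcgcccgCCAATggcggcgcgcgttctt
Syne2, chr12:75818068-75818317, plus strand: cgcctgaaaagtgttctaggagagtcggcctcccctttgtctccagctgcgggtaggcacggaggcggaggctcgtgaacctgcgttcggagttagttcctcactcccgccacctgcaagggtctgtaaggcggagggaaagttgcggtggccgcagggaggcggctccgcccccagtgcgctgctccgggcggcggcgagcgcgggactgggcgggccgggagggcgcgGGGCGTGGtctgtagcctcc
Lmna holds 1 CpG dinucleotide, against 31 in Lbr, 32 in Tmpo and 26 in Syne2, with a median of 6 over all 32817 windows. In the windows not printed, Sun2 and Syne1, which were also lower at day 6 than at day 3, hold 31 and 4. Sun1 holds 30, Lmnb2 14 and Emd 12. Lbr holds TGATTCA, a match to the AP-1 letters TGANTCA that overlaps a CHR element. Its 2 CCAAT boxes are at 68 and 28 bases before the start. Tmpo holds 2 CCAAT boxes, at 53 and 21 bases, and Syne2 holds GGGCGTGG at 20 bases. Of the 10 genes, 9 matched the table, all but Lmnb1. Among the 9, 5 held a CCAAT box (33.83% of all windows), 8 a GC box (32.72%), 2 a CHR element (15.98%), 1 an AP-1 box (6.75%) and 1 GGGCGTGG (4.79%). None of the 9 held the octamer (1.6% of windows), GGGTGTGG (3.19%), CACGTG (6.02%) or either E2F form (0.89% and 0.42%). A match is only a description of letters in this window.

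Other genes of the envelope were followed by list. Of 13 further genes for LEM proteins, torsins and other partners of the inner membrane, 2 rose and 2 fell at day 9 against MEF. In that comparison 24.1% of all genes were higher and 19.8% lower. In ESC against MEF 1 rose and 4 fell, where 25.5% of all genes were higher and 20.6% lower, with a median LFC of -0.48 beside 0.10 for all genes. Nrm, which encodes the membrane protein nurim, rose at day 3 (LFC 2.59 ± 0.0581), and Narf fell (LFC -2.37 ± 0.0589). In ESC against MEF, Tmem43, a partner of emerin, was lower (LFC -1.91), as was Tor1aip1, which activates torsin ATPases (LFC -1.77).

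Among 5 genes for enzymes that process the CaaX tail shown above, 1 was higher and 1 lower in ESC than in MEF, a share near that of all genes (25.5% higher, 20.6% lower). Fntb, a subunit of the farnesyltransferase, had LFC 1.07 ± 0.0643, and Zmpste24, the protease that trims prelamin A, had LFC -1.07 ± 0.0482. Of 7 other SUN and KASH genes, 5 passed the filter, and 3 rose and 1 fell at day 9 against MEF, beside 24.1% and 19.8% of all genes. Syne3, which encodes nesprin-3, was lower (LFC -3.87 ± 0.0926), while Syne4, nesprin-4 of epithelial cells, was higher (LFC 4.81 ± 0.155), as was Lrmp, a KASH protein of the endoplasmic reticulum (LFC 7.84 ± 0.123).

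Among 30 nuclear pore genes, 10 rose and 1 fell at day 9 against MEF (24.1% and 19.8% of all genes). In ESC 13 were higher than in MEF (25.5% of all genes), with a median LFC of 0.98 beside 0.10. Nup210, a pore membrane glycoprotein, had LFC 5.84 ± 0.122 at day 3, 8.07 ± 0.0938 at day 9 and 7.39 ± 0.1 in ESC, each against MEF. Sec13, which belongs to the pore Y-complex and to COPII coats, was lower at day 3 (LFC -1.16). Of 15 proliferation genes, 7 were higher at day 3 than in MEF (14.6% of all genes; median LFC 0.93 beside 0.08) and 12 in ESC (25.5%; median 1.46 beside 0.10), Mki67 with LFC 1.44 and Aurkb with 1.62 at day 3. The part of proliferation in the rise of Lmnb1, Tmpo and Lbr was not tested.

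Genes most like the members were ranked by Pearson correlation of log2 CPM over the 10 libraries, among 9499 protein-coding genes. For Lmna they were Myl12a (r = 0.9987), Rnd3 (0.9985) and Vmp1 (0.9981). For Lmnb1 they were Pold1 (0.9985), Fen1 (0.9984) and Chaf1b (0.9978). For Lbr they included Rpa2 (0.9989) and Kank3 (0.9984). The 10 points are 5 pairs of like libraries, so these values describe 5 stages. Between members, Lmnb2 and Lbr had r = 0.999, Tmpo and Syne2 0.914, Sun2 and Syne1 0.971, and Lmna and Lmnb1 -0.947.

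Levels of the 10 fibroblast markers stand beside these changes. As a share of their MEF level, the markers' median was 6.53% at day 3, 0.342% at day 6 and 0.177% at day 9, with 8.17% in ESC, while Lmna was at 35.4, 10.6, 11.7 and 13.3%. Their summed level was 47240 to 48630 CPM in MEF, 3621 to 3630 at day 3, 150.4 to 155.6 at day 6, 64.64 to 71.37 at day 9 and 4171 to 4314 in ESC, which were grown on feeder cells. At day 9, 2 of the 10 markers had a mean under 1 CPM. At day 3 the markers ranged from 0.352 to 56.6% of their MEF level, and 2 of the 10, Prrx1 (LFC -0.87) and Twist1 (LFC -0.82), were not called. Sun2 was at 108% of its MEF level at day 3 and 22.3% at day 9. Of 7 muscle markers, 7 were lower at day 3 than in MEF (14.5% of all genes). Their summed level was 153.8 to 156.3 CPM in MEF, 10.02 to 10.14 at day 3 and 101.1 to 103.7 in ESC. Macrophage and blood markers, 6 genes, summed to 10.45 to 10.91 CPM in MEF and 79.63 to 81.93 in ESC. Lyz2 at 50.1 and Cd68 at 25.5 CPM led the ESC sum. In ESC against MEF, 2 of the 5 tested were higher (25.5% of all genes) and 3 were not called. Mean Ptprc was 0.928 CPM in MEF and 0.838 in ESC, Csf1r 3.69 and 2.93, and Adgre1 0.948 and 1.42. Of 6 keratinocyte-type markers, 5 were higher at day 9 than in MEF (24.1% of all genes). Perp alone gave 231.9 of their summed 319.2 to 320.4 CPM at day 9, Krt5 was at 0.517 CPM, and Krt14 had LFC 0.07 (adjusted p = 0.9). The part of these other cell types in the results was not tested.

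**Figure D5:**
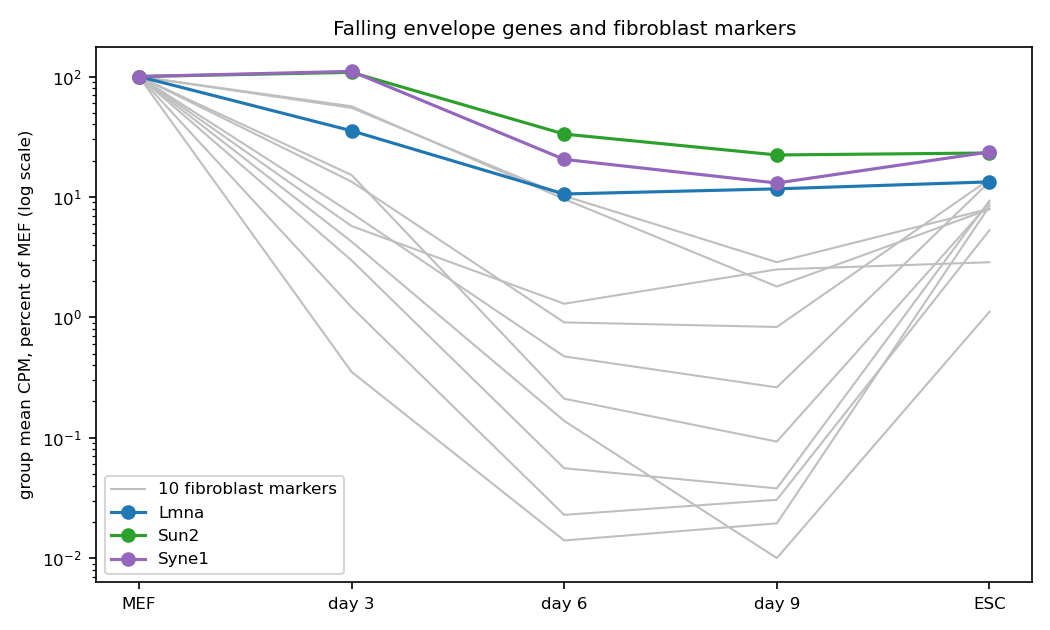
Level as a percent of MEF, on a log axis, for Lmna, Sun2 and Syne1 (coloured lines with points) and the 10 fibroblast markers (grey lines), from group means; values under 0.01 percent are drawn at 0.01 percent. The markers' median falls to 6.53% at day 3 and 0.177% at day 9 and stands at 8.17% in ESC, and the markers range from 0.352 to 56.6% at day 3; Lmna is at 35.4% at day 3 and 11.7% at day 9.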

How the data were processed

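For each of the 10 libraries the authors deposited a table of transcripts with an estimated count and a TPM value, per the file headers. Groups come from the sample titles. Salmon 0.8.2 and the mm10 genome are named in the submitters' processing notes, and the annotation release is not given in the sources used here. Effective lengths were identical in all tables. Libraries were poly(A)-selected and stranded, with single reads of 50 nt, per the labels' protocols.

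The counts of a gene's transcripts were added and rounded to whole numbers, and genes with low counts were removed (edgeR, minimum count 10, minimum total 15). A mean per group was fitted over the 10 libraries with TMM scaling and the quasi-likelihood method (edgeR 4.0.16 under R 4.3.3), and CPM are on that scale. SE belongs to the LFC. The common biological coefficient of variation was 3.75%. Pooled over genes, the 2 libraries of every group differed by more than sampling noise. The chi-square per degree of freedom ran from 2.91 in MEF to 5.42 at day 3. These values do not describe single genes. Exact permutation of 2 libraries against 2 has a smallest two-sided p of 0.333, so none was run. The fit was tested on simulated data. DESeq2 1.42.0, limma 3.58.1, pandas 2.3.3 and Python 3.11.15 were also used.

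The 10 genes and the lists were chosen with earlier results of these data known. The 10 are named whatever their values. From a list, a comparison could name up to 2 called rises and 2 called falls with 5 CPM or more in the higher group; marker genes, Xist and Ddx3y could be named beside a result. Likeness was ranked for Lmna, Lmnb1 and Lbr among genes with at least 20 CPM in 2 libraries, and transcripts are named from 10% of a gene's reads. 1 gene that the likeness rule names is not reported here. Alternatives were DESeq2, no filter and a stricter one, library-size scaling, a length offset, limma on log2(TPM + 1) or log2(TPM + 0.1), 2-group fits, no fold minimum, a replicate block, leaving out each replicate and, added after the data were seen, only transcripts of at least 1000 bases.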

Additional observations from a re-analysis of the deposited data

How the results depend on the processing

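Of the log2 fold changes recomputed under the alternatives, 804 kept direction and side of the threshold, 7 passed it newly and 29 changed sign; none of those 29 belonged to a called change. Without the fold minimum, members called were 9 at day 3 against MEF, 8 at day 6 against day 3, 7 at day 9 against day 6, 8 in ESC against day 9 and 10 in ESC against MEF. Scaling by library size moved the median of all genes to 0.285 at day 3, 0.482 at day 9 and 0.438 in ESC, each against MEF, and called 7 at day 3 (31.2% of all genes), adding Lmnb2 (1.149), Lbr (1.031) and Sun1 (1.056). Lbr at day 6 against day 3 passed with a length offset (1.003) and with limma on log2(TPM + 0.1) (1.016), and Syne2 in ESC against MEF with DESeq2 (-1.011) and without ESC replicate 1 (-1.007). The replicate block left the members called at 4, 3, 0, 8, 1 and 6. The deviations of same-numbered libraries had correlations of -0.0205 to 0.0222. Whether the numbers pair the libraries is not decided by these values, because sampling noise at genes with few reads can hide a shared deviation. Leaving out 1 library at a time gave 4, 3, 0, 8 and 1 in every case and 6 to 7 in ESC against MEF.

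Signs turned as follows. At day 3 against MEF, Sun2 was -0.007 with DESeq2. At day 6 against day 3, Emd was -0.011 with DESeq2, -0.016 in the 2-group fit, -0.008 without day 3 replicate 2 and -0.043 to 0.059 over all left-out libraries, the lowest without day 6 replicate 1, Tmpo was 0.042 by library size, and Sun1 was 0.002 with the length offset and 0.012 with limma at either pseudocount. At day 9 against day 6, limma at the larger and smaller pseudocount gave -0.07 and -0.07 for Lmnb1, -0.019 and -0.02 for Lmnb2, -0.334 and -0.342 for Lbr and -0.169 and -0.173 for Sun1, and the length offset gave -0.253 for Lbr and -0.082 for Sun1. Emd at day 9 against MEF was 0.192 by library size and 0.019 over transcripts of at least 1000 bases, and 0.183 by library size in ESC against MEF. In ESC against day 9, Emd was 0.013 with DESeq2 and 0.078 and 0.08 with limma, and Sun2 was -0.234 with the length offset, -0.059 and -0.061 with limma and -0.024 to 0.132 over left-out libraries, the lowest without day 9 replicate 1. The causes were not tested.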

Other observations

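Emd-006, a transcript annotated for nonsense-mediated decay, held 39.8% ± 1.54 (SD, n = 2) of Emd reads in MEF, 35.2% ± 1.87 at day 3, 37.1% ± 1.02 at day 6 and 37.1% ± 1.91 at day 9, with 38.3% ± 2.26 in ESC. Lbr-002 held 13.9% ± 1.24 of Lbr reads in MEF and 6.44% ± 0.26 in ESC, with 9.86 to 10.2% at days 3, 6 and 9, so the 2 ESC libraries were lowest.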
